A study of Homo sapiens with 6 samples.

Results

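MDA-MB-231 cells carried 10 genes of the BCL2 family that are described here: the anti-apoptotic genes MCL1, BCL2L1, BCL2, BCL2L2 and BCL2A1, the effectors BAX and BAK1, and the BH3-only genes BAD, BID and BCL2L11. They were found by exact symbol in the deposited table, and all 10 were present among its 25365 rows. MDA-MB-231 is an established triple-negative breast cancer line. The control group, si-Control, received the Ambion siRNA AM4611, and the other group, si-NRDE2-2, received the Ambion siRNA s30064 against NRDE2, a nuclear partner of the RNA helicase MTREX. Both siRNAs were given at 20 nM with lipofectamine RNAiMAX, RNA was taken after 48 h, and each group had 3 libraries, all from the same line. A single siRNA against NRDE2 was used, nothing in the labels says that the replicates were separate cultures, and p-values therefore measure only the spread between these libraries, which may be technical.

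The BCL2 family sets the threshold for mitochondrial cell death. Anti-apoptotic members hold BAX and BAK1 in check at the outer mitochondrial membrane, and BH3-only proteins either neutralise these guardians or activate the effectors directly. Once BAX or BAK1 forms pores, cytochrome c leaves the mitochondrion and caspases are switched on. MCL1 and BCL-XL, the main product of BCL2L1, are known as survival factors of breast cancer cells. Protein activity in this family depends heavily on binding partners, protein turnover and alternative splicing, none of which is measured by a gene-level mRNA value.

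Values are FPKM, fragments scaled to transcript length and to the mapped total, and log2 fold changes compare si-NRDE2-2 with si-Control on log2(FPKM + 0.1), with adjusted p-values from limma. Estimated depth ran from 41700000 to 57400000 fragments per library. NRDE2 itself fell from 4.21 ± 0.358 to 0.231 ± 0.00270 FPKM (SD, n = 3). Of the basal or mesenchymal markers, VIM was at 1113 to 1260 FPKM over the 6 libraries, CAV1 at 213 to 235 FPKM, CD44 at 149 to 158 FPKM in si-Control and 181 to 184.5 FPKM in si-NRDE2-2, and AXL at 194 to 196 and 153 to 157 FPKM. KRT18, a keratin of epithelial cells listed with them, was at 261 to 285 and 306 to 320.1 FPKM. Of the luminal and epithelial markers, ESR1 and PGR were at no more than 0.00441 FPKM and CDH1 at 0.326 to 0.445 FPKM, whereas GATA3 was at 1.96 to 2.36, EPCAM at 7.43 to 8.45 and ERBB2 at 10.3 to 12.9 FPKM. Of 4 markers of leukocytes, T cells, endothelium and hepatocytes, PTPRC, CD3E and ALB were at no more than 0.0730 FPKM. The endothelial marker PECAM1 was at 0.525 to 0.688 FPKM in si-Control and 0.958 to 1.18 FPKM in si-NRDE2-2, and the 4 markers together summed to 0.613 to 0.811 and 1.06 to 1.31 FPKM. The part of these marker signals in the results was not tested.

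Of the 10 members, 8 passed the filter of at least 1 FPKM in at least 3 libraries, and these 8 were above that level in all 6. MCL1, BAX and BID rose, 0 members fell at an adjusted p under 0.05, and the other 5 tested members did not pass. Among all 11789 genes tested, 44.0% were called, 20.9% as higher and 23.0% as lower, so a count of 3 called among 8 (37.5%) is close to the background. The median log2 fold change was 0.05 over the 8 members and -0.02 over all genes tested.

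**Figure D1:**
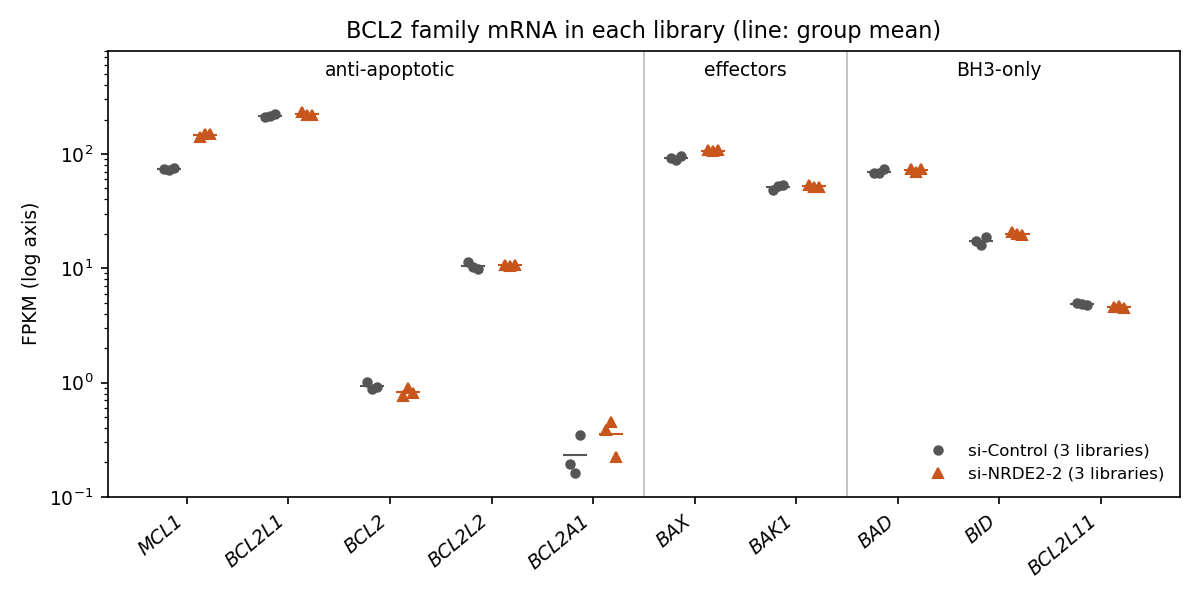
FPKM of the 10 members on a log axis in each of the 3 si-Control libraries (grey circles) and 3 si-NRDE2-2 libraries (orange triangles), with a line at each group mean. MCL1 moves from 73.7 to 146 FPKM, passing BAX in the order of levels, while BCL2L1 stays the highest member in both groups.

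MCL1 encodes a short-lived guardian that binds BAK1 and several BH3-only proteins. By replicate number, its si-Control libraries read 73.2, 72.9 and 75.04 FPKM and its si-NRDE2-2 libraries 139.5, 149 and 149 FPKM. The si-Control libraries lay close together and every si-NRDE2-2 library was far above them. As in any bulk sample, more MCL1 RNA in each cell and more cells with a high level cannot be told apart. The group means were 73.7 ± 1.15 and 146 ± 5.46 FPKM (SD, n = 3), a ratio of 1.98 and a log2 fold change of 0.98 ± 0.04 (SE, adjusted p = 6.3e-08, limma). A total of 72 of the 11789 tested genes had a larger log2 fold change. Over the 17 alternative analyses the MCL1 value stayed between 0.96 and 1.01. The direction of this change was known when the members were picked. Skipping of an internal exon turns MCL1 into a short, death-promoting form, and the gene-level FPKM does not separate the long from the short product.

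The 3′ UTR of MCL1 holds a short sequence whose carriers rose more often than tested genes as a whole, and it is shown for that reason. Most genes that rose did not hold it. An earlier scan of these same fold changes had picked out GACGTA as well as GACAGTA together with GACTGTA in the 3′ UTR of genes that rose, so their presence is no independent evidence. All 10 members had an annotated 3′ UTR in GENCODE release 29 (1 transcript per gene), and the transcript strand was searched for these 3 sequences. MCL1 and BCL2 each carried 1 copy of GACTGTA, and the other 8 members carried none of the 3. The windows of 30 bases below are shown 5′ to 3′ on the transcript strand, with GACTGTA in capitals, for these members, for the family gene BCL2L13 and for TNFSF10, the death ligand described further on.
MCL1: aatagaactatGACTGTAagcctcagtact
BCL2: ttaataaataaGACTGTAgtgtagatactg
BCL2L13: cacattcatctGACTGTAaatcccaagggc
TNFSF10: ctccttgtaaaGACTGTAgaagaaagagca
In GRCh38, the build of that annotation and not the hg19 build named for the deposited values, the windows lie at chr1:150576909-150576938 (minus strand) in MCL1, chr18:63123878-63123907 (minus) in BCL2, chr22:17727706-17727735 (plus) in BCL2L13 and chr3:172506133-172506162 (minus) in TNFSF10. The flanks of the 4 windows differ from each other.

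Among the members and listed genes with GACTGTA, estimates differed in sign, but only FOXO3 was called lower. MCL1 and TNFSF10 were about 2-fold higher (ratios of 1.98 and 2.24). BCL2L13 was at -0.10 ± 0.05 on the log2 scale (adjusted p = 0.155). BCL2, analysed with no filter on low values, was at -0.16 ± 0.10 (adjusted p = 0.266). The other genes with this sequence in the lists described below are named here whatever their values. CYCS was at 0.18 ± 0.07 (adjusted p = 0.0427), a call lost in 8 of 17 alternatives, and FOXO3 at -0.23 ± 0.06 (adjusted p = 0.008). USP9X at 0.05 ± 0.05 and CASP10 at -0.01 ± 0.07 did not pass. Among 11033 tested genes with an annotated 3′ UTR, 988 (9.0%) held GACTGTA. Of these 988 genes 34.9% rose and 13.8% fell, against 21.3% and 22.9% of all 11033, and their median log2 fold change was 0.07 against -0.01. Their median 3′ UTR was also longer, at 2887 against 1068 bases, and that of MCL1 had 2819 bases. Of 71 such genes with a change at least as large as that of MCL1, 14 held GACTGTA and 25 held none of the 3 sequences. The part of this sequence, of UTR length and of either siRNA in the MCL1 rise was not tested.

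BCL2L1, which encodes BCL-XL, was the most abundant member in every library. Its values by replicate number were 209.6, 213 and 222 FPKM with si-Control, then 233, 220.3 and 219 FPKM with si-NRDE2-2. The groups overlapped, and the log2 fold change was 0.06 ± 0.05 (adjusted p = 0.347), with a 95% interval of -0.05 to 0.17. Once trends with GC content and transcript length had been taken out of each library, BCL2L1 passed at 0.10 (adjusted p = 0.0133, or 0.0188 if the replicate block was added), in a background of 25.9% of genes higher in that analysis. Its other alternatives gave no call. Like MCL1, BCL2L1 yields a long protective and a short death-promoting product by splicing, and their sum is what is counted here.

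BCL2L2, encoding the guardian BCL-W, was at 11.3, 10.4 and 9.91 FPKM in si-Control and 10.7, 10.5 and 10.7 FPKM in si-NRDE2-2. The si-NRDE2-2 values lay inside the si-Control range, and the 95% interval of the log2 fold change ran from -0.10 to 0.14. BCL2L2 shares exons with BCL2L2-PABPN1, a readthrough transcript listed separately at 46.6 ± 0.474 FPKM in si-Control and 43.4 ± 2.94 FPKM in si-NRDE2-2. The sources used here do not say how reads were divided between these overlapping rows, so the BCL2L2 level is uncertain.

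BCL2, the founding gene of the family, and BCL2A1, an NF-kB target that encodes BFL-1, were barely present. BCL2 was at 1.01, 0.875 and 0.910 FPKM in si-Control and 0.767, 0.894 and 0.803 FPKM in si-NRDE2-2, with the groups overlapping. BCL2A1 was at 0.195, 0.163 and 0.345 FPKM in si-Control and 0.385, 0.453 and 0.224 FPKM in si-NRDE2-2. On the annotated length of 1033 bases these BCL2A1 values correspond to about 9.64 to 24.8 fragments per library. Neither gene met the filter. With no filter on low values, where 25.6% of 19229 genes were called, BCL2 was at -0.16 ± 0.10 (adjusted p = 0.266) and BCL2A1 at 0.44 ± 0.26 (adjusted p = 0.267). The 95% interval for BCL2A1, from -0.16 to 1.05, reaches past the MCL1 value of 0.98, so a change of that size is not excluded for BCL2A1.

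Of the pore-forming effectors, BAX rose and BAK1 did not pass, and the difference between them was not tested. BAX was at 92.4, 88.6 and 96.8 FPKM in the si-Control libraries (by replicate number, as in all such lists) and at 107, 105 and 108 FPKM with si-NRDE2-2. Each si-NRDE2-2 library was above each si-Control library. The means of 92.6 ± 4.08 and 107 ± 1.54 FPKM gave a ratio of 1.16 and a log2 fold change of 0.21 ± 0.05 (adjusted p = 0.0036), a call kept in all 17 alternatives (adjusted p from 3.5e-04 to 0.0274). BAK1, the effector that MCL1 binds, was at 48.8, 52.4 and 53.5 FPKM in si-Control and 53.8, 51.4 and 51.3 FPKM in si-NRDE2-2. Its groups overlapped, and the log2 fold change of 0.02 ± 0.05 (adjusted p = 0.797) had a 95% interval of -0.09 to 0.12.

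Of the 3 BH3-only members, which sense stress and relay it to the guardians and effectors, 1 rose (33.3% called, with 44.0% in the background). BID, whose protein is cut by caspase-8 to link death receptors to mitochondria, was at 17.4, 16.1 and 18.9 FPKM in si-Control and 20.6, 19.8 and 19.5 FPKM in si-NRDE2-2. The groups did not overlap, and the means of 17.5 ± 1.37 and 19.97 ± 0.569 FPKM gave a log2 fold change of 0.19 ± 0.06 (adjusted p = 0.018). This call was lost in 3 alternatives: leaving out si-Control replicate 2 gave an adjusted p of 0.0926, leaving out si-NRDE2-2 replicate 1 gave 0.0535, and dropping the filter on low values gave 0.0513. The alternatives spanned adjusted p-values of 0.0034 to 0.0926.

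BAD, which binds BCL-XL when it is not phosphorylated, was at 67.6, 68.6 and 74.3 FPKM in si-Control and 73.7, 69.5 and 73.6 FPKM in si-NRDE2-2. The 2 ranges overlapped, and the 95% interval of the log2 fold change was -0.06 to 0.15 (adjusted p = 0.503). BCL2L11 encodes BIM, a BH3-only protein able to bind all main guardians. It was at 4.94, 4.85 and 4.78 FPKM in si-Control and 4.55, 4.66 and 4.48 FPKM in si-NRDE2-2. All 3 si-NRDE2-2 values were the lower ones, but the log2 fold change of -0.09 ± 0.06 did not pass (adjusted p = 0.231, 95% interval -0.21 to 0.04). Over the 8 tested members the groups did not overlap for 4 (MCL1, BAX, BID and BCL2L11), where 53.5% of all tested genes had groups that did not overlap.

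**Figure D2:**
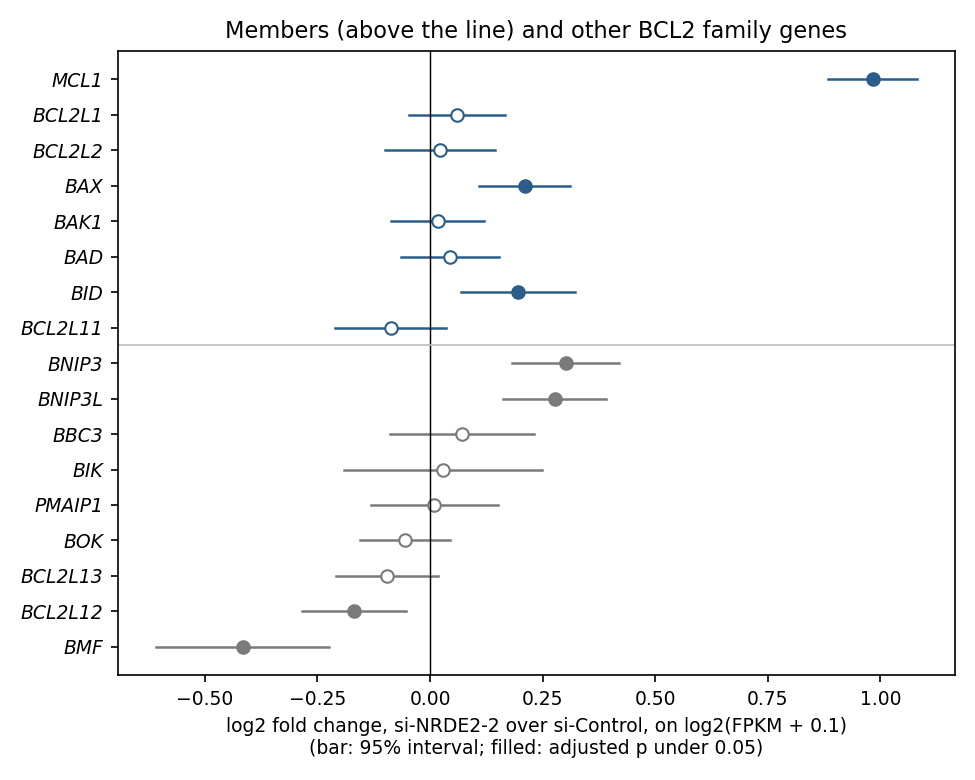
log2 fold change of si-NRDE2-2 over si-Control with its 95% interval for the 8 tested members (blue) and 9 tested other family genes (grey), filled where the adjusted p was under 0.05. MCL1 at 0.98 lies far to the right of BNIP3 at 0.30, the next value, and BMF at -0.42 is the lowest.

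Set side by side by FPKM, which is per length, the members kept nearly the same order in both groups. In si-Control the order was BCL2L1, BAX, MCL1, BAD, BAK1, BID, BCL2L2, BCL2L11, BCL2 and BCL2A1. The ranges of MCL1 (72.9 to 75.04 FPKM) and BAD (67.6 to 74.3 FPKM) overlapped, and those of all other neighbours were apart. In si-NRDE2-2 MCL1 stood second, at 139.5 to 149 FPKM above BAX at 105 to 108 FPKM, and no neighbours overlapped. The place of BCL2L2 is uncertain because of its overlap with BCL2L2-PABPN1, and all places depend on transcript lengths that are not known here.

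The share of MCL1 in the summed FPKM of the 5 anti-apoptotic genes went from 24.5% ± 0.235 in si-Control to 38.2% ± 1.69 in si-NRDE2-2 (SD, n = 3). That of BCL2L1 went from 71.6% ± 0.540 to 58.7% ± 1.70. The summed FPKM of the anti-apoptotic genes was 295, 297 and 308 in si-Control and 385, 381 and 379 in si-NRDE2-2, so the groups were apart. The sum over the 5 effector and BH3-only genes was 231, 230.6 and 248 in si-Control and 260.2, 251 and 257 in si-NRDE2-2, and these groups were apart as well. The ratio of both sums was 1.27 ± 0.0245 in si-Control and 1.49 ± 0.0254 in si-NRDE2-2. The mean anti-apoptotic sum went from 300 to 382 FPKM, MCL1 from 73.7 to 146 FPKM and BCL2L1 from 215 to 224 FPKM. Most of the rise of that sum was therefore the rise of MCL1, which was known when the members were picked. These sums were described without a test, because the members were chosen with results known. They include the uncertain BCL2L2 level without the separate BCL2L2-PABPN1 row (46.6 FPKM in si-Control and 43.4 FPKM in si-NRDE2-2). The sums and shares also depend on transcript lengths that are not known here.

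By medians the survival and death sides differed by little. The median log2 fold change was 0.06 for the 3 tested anti-apoptotic genes, of which 1 rose, and 0.04 for the 5 effector and BH3-only genes, of which 2 rose. The difference of the medians was 0.02, and it ran from -0.0018 to 0.05 when single libraries were left out. With the filter set to a mean of at least 5 FPKM, which removes BCL2L11, it was -0.0596, so its direction was not stable. The 95% intervals of BCL2L1 and BCL2L2 ended at 0.17 and 0.14, far below the MCL1 value of 0.98.

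The ratio of MCL1 to each death gene within a library does not depend on how that library was scaled. MCL1 to BAX was 0.793, 0.823 and 0.775 in si-Control and 1.299, 1.42 and 1.37 in si-NRDE2-2. By FPKM, MCL1 was therefore below BAX in every si-Control library and above it in every si-NRDE2-2 library. Which gene of a ratio is the higher depends on the transcript lengths behind the FPKM, which are not known here. MCL1 to BAK1 went from 1.43 ± 0.0604 to 2.80 ± 0.179 (SD, n = 3), MCL1 to BAD from 1.05 ± 0.0380 to 2.02 ± 0.127, MCL1 to BID from 4.24 ± 0.273 to 7.31 ± 0.468 and MCL1 to BCL2L11 from 15.2 ± 0.467 to 31.95 ± 1.297. The fold between groups was lowest against BAX (1.71) and highest against BCL2L11 (2.10), and the groups were apart for all 5 ratios. BCL2L1 to BAX, for comparison, went the other way, from 2.32 ± 0.0709 to 2.09 ± 0.0773. The 5 MCL1 ratios share their numerator, whose rise was known when the members were picked. That the groups were apart for each of them therefore repeats the MCL1 result. None of the ratios given here was tested.

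**Figure D3:**
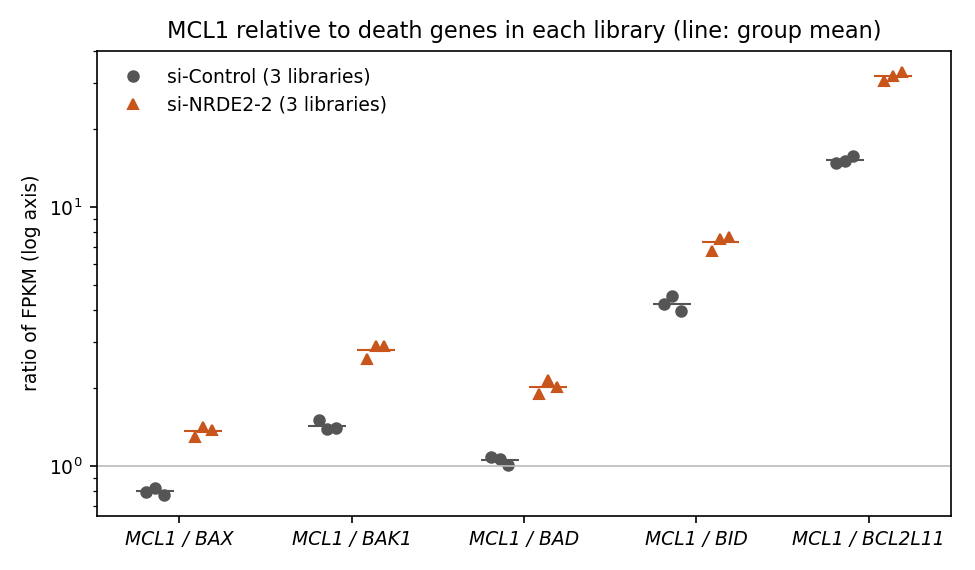
Ratio of MCL1 FPKM to the FPKM of each of 5 death genes on a log axis, in 3 si-Control libraries (grey circles) and 3 si-NRDE2-2 libraries (orange triangles), with lines at the group means and at a ratio of 1. For BAX the ratio of FPKM crosses 1, from a mean of 0.797 to 1.36, and for the other 4 genes it is above 1 in both groups. Where a ratio stands against 1 depends on the transcript lengths behind the FPKM.

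Of 13 further family genes, 9 were tested, 2 rose, 2 fell and 5 did not pass, so that 44.4% were called beside 44.0% of all genes. BNIP3 and BNIP3L, atypical BH3 proteins of mitophagy and known targets of the hypoxia response, rose together. BNIP3 went from 158, 159.6 and 168 FPKM to 186, 207 and 206 FPKM, a log2 fold change of 0.30 ± 0.05 (adjusted p = 0.0011). BNIP3L went from 48.6 ± 1.15 to 58.98 ± 3.90 FPKM (0.28 ± 0.05, adjusted p = 0.0015). In both genes every si-NRDE2-2 library was above every si-Control library.

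BMF, a BH3-only gene whose protein is tied to the cytoskeleton, had the lowest log2 fold change of the tested family genes. It was at 3.59, 3.58 and 3.85 FPKM in si-Control and 2.93, 2.37 and 2.92 FPKM in si-NRDE2-2, a log2 fold change of -0.42 ± 0.09 (adjusted p = 0.0029). BCL2L12, an atypical member, fell from 24.5 ± 1.46 to 21.7 ± 0.798 FPKM (-0.17 ± 0.05, adjusted p = 0.0224). That call was lost in 5 of 17 alternatives (adjusted p from 0.0064 to 0.0793 over the 17). Leaving out si-Control replicate 2 gave 0.0644, si-Control replicate 3 gave 0.0584, si-NRDE2-2 replicate 2 gave 0.0793 and si-NRDE2-2 replicate 3 gave 0.0732.

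PMAIP1 encodes NOXA, the BH3-only partner that is most selective for MCL1. It was at 52.1, 50.3 and 52.4 FPKM in si-Control and 47.1, 51.6 and 57.6 FPKM in si-NRDE2-2, with a wider spread in the second group and a 95% interval of -0.13 to 0.15 for the log2 fold change (adjusted p = 0.919). The ratio of MCL1 to PMAIP1 went from 1.43 ± 0.0223 to 2.81 ± 0.200. BBC3, which encodes the p53 target PUMA, was at 17.3 ± 1.46 and 18.2 ± 1.61 FPKM (adjusted p = 0.460). The other tested genes were the effector relative BOK at -0.06 ± 0.05, the BH3-only gene BIK at 0.03 ± 0.10 and BCL2L13 at -0.10 ± 0.05, none past the threshold. BCL2L10, HRK, BCL2L14 and BCL2L15 did not meet the filter, and their highest value in any library was 0.106 FPKM, in BCL2L15.

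Downstream of the mitochondrion, the 14 genes of the apoptosome and caspase list were all tested, and 1 rose and 3 fell, so that 28.6% were called beside 44.0% of all genes. CYCS, which encodes cytochrome c, was at 26.8 ± 0.877 and 30.5 ± 3.10 FPKM (0.18 ± 0.07, adjusted p = 0.0427) with overlapping groups. The CYCS call was lost in 8 of 17 alternatives (adjusted p from 0.0514 to 0.163), including every fit that left out 1 library except si-NRDE2-2 replicate 1. Those values were 0.0694, 0.144 and 0.0514 for the 3 si-Control libraries by number, 0.116 for si-NRDE2-2 replicate 2 and 0.163 for si-NRDE2-2 replicate 3. CASP6 and AIFM1, the latter a mitochondrial flavoprotein released in caspase-independent death, fell by 0.24 ± 0.06 and 0.20 ± 0.04 on the log2 scale. DFFA, the inhibitor of the caspase-activated DNase, was at -0.14 ± 0.05 (adjusted p = 0.0475), and its call was lost in 10 of 17 alternatives (adjusted p from 0.0502 to 0.129). Leaving out the si-Control libraries by number gave 0.0852, 0.129 and 0.0796 for DFFA, si-NRDE2-2 replicate 1 gave 0.105 and si-NRDE2-2 replicate 3 gave 0.102. The median of the list was -0.09.

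Caspase inhibitors included 2 genes that rose among 7 tested (28.6% called, with 44.0% in the background). The NF-kB target BIRC3, encoding the ubiquitin ligase cIAP2, went from 48.7, 42.95 and 50.3 FPKM to 64.8, 62.2 and 68.5 FPKM (0.46 ± 0.06, adjusted p = 1.4e-04). CFLAR, encoding the caspase-8 inhibitor FLIP, went from 35.8 ± 1.94 to 45.4 ± 1.88 FPKM (0.34 ± 0.05, adjusted p = 3.2e-04). BIRC2 was at 0.05 ± 0.04 and BIRC5, the gene of survivin, at 0.05 ± 0.04, neither past the threshold, and 0 of the 7 fell.

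**Figure D4:**
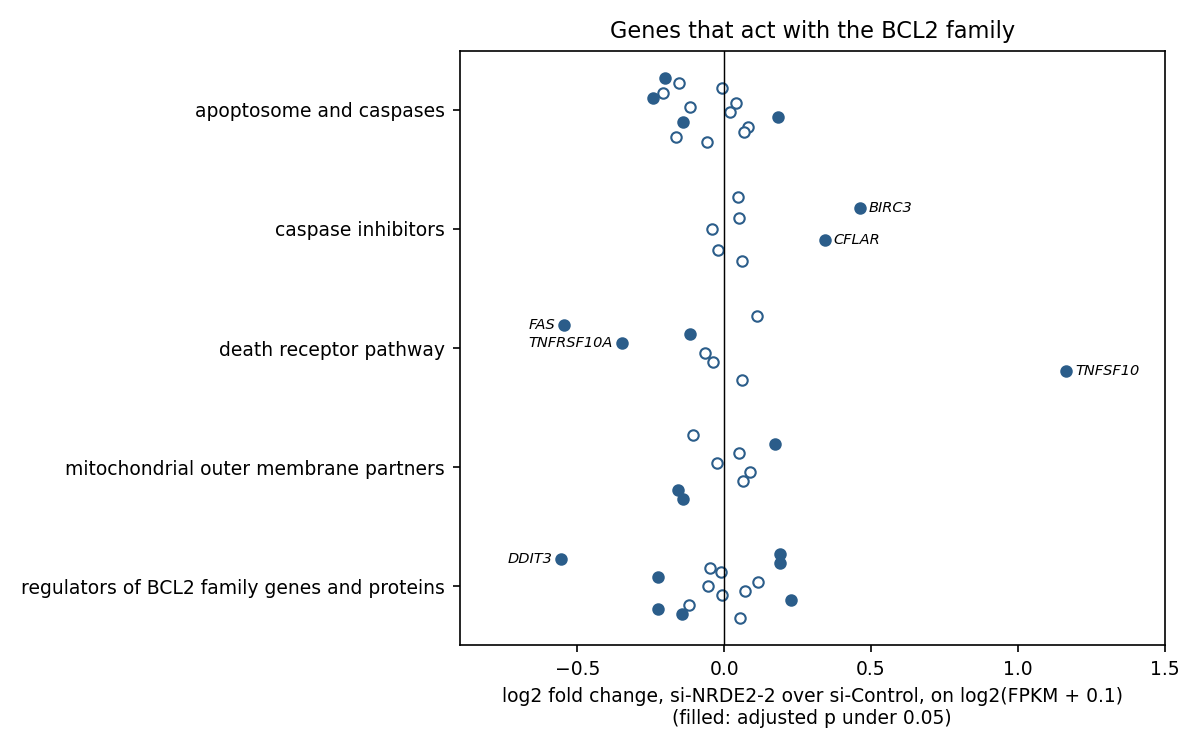
log2 fold change of each tested gene in 5 lists of genes that act with the BCL2 family, filled where the adjusted p was under 0.05, with gene names beside called values beyond 0.27 in either direction. TNFSF10 at 1.17 is the highest value and DDIT3 at -0.55 the lowest.

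In the death receptor pathway 1 gene rose and 3 fell among 8, so that 4 of 8 were called where 44.0% of all genes were. TNFSF10, the gene of the death ligand TRAIL whose 3′ UTR window is printed above, was at 63.3, 57.7 and 72.4 FPKM in si-Control and 147, 138 and 146 FPKM in si-NRDE2-2. This log2 fold change of 1.17 ± 0.07 (adjusted p = 5.3e-07) was larger than that of MCL1. TNFRSF10A, a TRAIL receptor gene, moved against its ligand, from 18.04 ± 0.804 to 14.2 ± 0.635 FPKM (-0.35 ± 0.05, adjusted p = 3.2e-04). The more abundant TRAIL receptor gene TNFRSF10B was at 89.0 ± 0.672 and 85.2 ± 0.817 FPKM and did not pass (-0.06 ± 0.04, adjusted p = 0.212). The death receptor gene FAS fell from 2.87 ± 0.0124 to 1.94 ± 0.212 FPKM, and the adaptor kinase gene RIPK1 was at -0.12 ± 0.04 (adjusted p = 0.0452), a call lost in 9 of 17 alternatives (adjusted p from 0.0548 to 0.163). Leaving out si-Control replicate 1 gave 0.125 and si-Control replicate 2 gave 0.163, and leaving out the si-NRDE2-2 libraries by number gave 0.0610, 0.107 and 0.115.

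Among 8 genes of the mitochondrial outer membrane and of mitochondrial shape, 1 rose and 2 fell, all by little, and the called share of 37.5% was below the background of 44.0%. VDAC2, whose channel protein binds BAK1, went from 165 ± 7.73 to 148 ± 3.67 FPKM (-0.16 ± 0.05, adjusted p = 0.0224). VDAC3 fell by 0.14 ± 0.04 and the fusion gene MFN1 rose by 0.17 ± 0.05. Each of these 3 calls was lost when some single libraries were left out. For VDAC2 the adjusted p was 0.0533 and 0.0994 on leaving out si-NRDE2-2 replicate 2 or 3, and 0.0583 when the replicate block was used. For VDAC3 it was 0.0647 and 0.0823 on leaving out replicate 2 of si-Control or of si-NRDE2-2. For MFN1 it was 0.0521 and 0.0575 on leaving out si-Control replicate 2 or 3, 0.0768 and 0.0869 on leaving out the same numbers of si-NRDE2-2, and 0.0755 with equal FPKM totals in all libraries. The fission gene DNM1L was at -0.11 ± 0.05 (adjusted p = 0.119) and passed in the fits that took out GC and length trends, at 0.0295 alone and 0.0264 together with the replicate block.

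Of 16 genes known to regulate this family at the level of transcription or protein turnover, 15 were tested, 3 rose and 4 fell, which makes 46.7% called against 44.0% of all genes. DDIT3, a stress transcription factor known to induce BCL2L11, went from 129, 139 and 153 FPKM to 98.7, 92.8 and 94.2 FPKM (-0.55 ± 0.06, adjusted p = 3.6e-05). STAT3, a known activator of MCL1 transcription, fell by 0.23 ± 0.04 (adjusted p = 0.0011). NFKB1 rose by 0.23 ± 0.05 and E2F1 by 0.19 ± 0.04. The median of these 15 genes was -0.01, next to -0.02 over all genes tested.

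Genes whose profile over the 6 libraries was most like that of MCL1, by Pearson correlation of log2(FPKM + 0.1) among 8459 other genes with a mean of at least 5 FPKM, were FAM49B, CALU, PPP3R1, CAPZA1 and XXYLT1, with r from 0.9993 to 0.9997. Their log2 fold changes ran from 0.63 (PPP3R1) to 1.452 (CALU), and 233 genes had r over 0.99. With 2 groups and 3 libraries in each, any gene with a large rise and a small spread scores high, so the list describes that shape and nothing more. Of the 3 UTR sequences named above, FAM49B held GACAGTA, CAPZA1 GACGTA, PPP3R1 GACAGTA and GACTGTA, and CALU and XXYLT1 none. Any of the 3 was held by 17.7% of the 11033 tested genes with an annotated 3′ UTR. Among the 71 of them with a change at least as large as that of MCL1, 46 held any. The sequences had been picked from genes that rose in these data, so their presence here is no independent evidence. For BID, the called member with the smallest change, the closest profiles were those of HIGD2A, SAA2, TPGS1, DGAT2 and SERPINA1. Their r ran from 0.982 to 0.986, and of the 3 sequences SERPINA1 held GACTGTA and the others none.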

How the data were processed

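The authors deposited FPKM values, 1 per gene and library, for 6 libraries. Poly(A)-selected libraries came from the TruSeq Stranded mRNA kit, per the labels' protocols. The submitters' processing notes name DESeq2 1.10.1, STAR 2.5.1b and the build hg19, with no role for each. The annotation, the strand setting and the program behind the FPKM are not given in the sources used here. FPKM divides by transcript length, so the transcript model chosen by the authors bears on levels. A 0 may be a failed estimate, since RPS18, a gene every cell uses, was listed at 0 throughout. Columns were matched through the labels' descriptions, and 4 columns were not used.

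Genes that reached 1 FPKM in 3 or more libraries, without small RNA rows, were fitted as log2(FPKM + 0.1) with limma 3.58.1 in R 4.3.3 (trended, robust prior variance, group as the only term, two-sided). Benjamini-Hochberg adjustment ran over all 11789 genes and an adjusted p under 0.05 was called. The fit was tested on simulated data. A ratio is that of group means in FPKM, and the log2 scale understates changes of low genes. Depth was estimated from whole-number steps between values of genes at or under 0.05 FPKM: 1219 of 2291 genes (53.2%) had whole multiples within 0.02. GENCODE release 29 gave lengths and UTRs, and GC content for 98.0% of tested genes.

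The members, the gene lists and the filter were chosen with earlier results of these data known. Named were all members, NRDE2, all tested genes of the list of other family genes, up to 4 genes of each other list by smallest adjusted p, and the 5 genes most like MCL1 and the called member with the lowest change. BCL2L2-PABPN1, TNFRSF10B, the marker genes, the family genes under the filter and the carriers of GACTGTA were named besides. One listed gene is not reported here.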

Additional observations from a re-analysis of the deposited data

How the results depend on the processing

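There were 17 alternatives, and 16 applied to genes removed by the filter of a mean of at least 5 FPKM. The MCL1 ratios were recomputed only with single libraries left out, and the summed levels, UTR shares, pathway list counts and medians and profile correlations under none. BCL2 and BCL2A1 have a value only with no filter on low values. The number of genes changed was 5185 in the main analysis and ran from 3929 to 5494 when single libraries were left out, 4686 with the replicate block and 6533 with GC and length trends removed. The count of members that rose was 2 of 10 with no filter on low values, where 25.6% of 19229 genes were called in either direction. It was 4 of 8 with GC and length trends removed, where 25.9% of 11789 genes were higher, and also 4 with the replicate block added. That count ran from 2 to 3 and that of members that fell was 0 in each fit that left out 1 library. The count of other family genes that fell ran from 1 to 2 in those fits and was 1 with no filter on low values and 1 with a mean of at least 5 FPKM, which removes BMF. The difference of the anti-apoptotic and death gene medians was -0.0596 with a mean of at least 5 FPKM, which removes BCL2L11. When single libraries were left out, the fold of the MCL1 ratio ran from 1.68 to 1.75 against BAX, 1.92 to 2.03 against BAK1, 1.86 to 1.98 against BAD, 1.67 to 1.79 against BID and 2.06 to 2.15 against BCL2L11. Of the recomputed values for single named genes, 592 kept their side of the threshold, 45 lost a call and 4 gained one, and no called value changed sign. MCL1 and BAX kept their calls in all 17.

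The deviations from the group means of same-numbered libraries correlated at -0.123, 0.105 and -0.121, and those of unlike-numbered libraries at -0.113 to 0.17. With 3 libraries in each group, these values cannot decide whether the replicate numbers pair the libraries. Adding the replicate block left MCL1, BAX and BID called and 0 members that fell. Few fragments stand behind BCL2A1, about 9.64 to 24.8 per library. Loss of NRDE2 and other effects of the single siRNA cannot be told apart.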
